A study of Mus musculus with 6 samples.

Results

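Expression of 7 cytochrome P450 genes (Cyp3a11, Cyp3a13, Cyp3a25, Cyp3a44, Cyp2b10, Cyp2c65 and Cyp2c66) and of 2 nuclear receptor genes (Nr1i2 and Nr1i3) was examined in the small intestine of alk-SMase knockout (KO) and wild type (WT) mice. The genes were chosen by name, and all 9 could be placed on a row of the expression table, out of 12397 named genes that could be placed. Alk-SMase (alkaline sphingomyelinase, gene Enpp7) is an enzyme of the gut epithelium that splits dietary sphingomyelin. The libraries were K79S, K82S and K86S from 3 KO mice and W83S, W89S and W90S from 3 WT mice, with 1 library per mouse. All mice were C57BL/6, and the tissue was the mucosa of the middle small intestine. In KO mice, exon 2 of Enpp7 had been removed by Cre recombinase acting on loxP sites, which shifts the reading frame. The Cre driver, age, sex and any treatment were not given in the sources used here, and no treatment was named for either genotype.

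Cytochrome P450 enzymes of the Cyp2 and Cyp3a subfamilies oxidise drugs, food toxins, steroids and fatty acids in liver and gut. Their genes are classically induced by 2 nuclear receptors, PXR (pregnane X receptor, gene Nr1i2) and CAR (constitutive androstane receptor, gene Nr1i3). Both receptors bind DNA as partners of the retinoid X receptor, and PXR responds to bile acids, steroids, drugs and plant compounds. In the small intestine, the enzymes lie in the absorptive enterocytes, where they act on compounds before these reach the blood.

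Expression was deposited as FPKM (fragments scaled to gene length and to the mapped reads of the library), so levels can be compared between genes. FPKM holds no read counts, so no counting error is given. The lowest values put the depth of the other libraries at 0.578 to 0.962 of that of W83S. Identifiers in the table stood beside the values of other genes, and each gene was put back on its row by its rank. All 9 genes carried the number of decimals that their number of annotated transcripts calls for, the property from which this placement was derived. Enpp7 had an FPKM of 605, 129 and 669.7 in the KO libraries and of 406, 667 and 495 in the WT libraries, and values per gene cannot show whether 1 exon is missing. Y-linked Eif2s3y was listed at 0 in K79S and lay at 5.69 to 8.16 FPKM in the other 5 libraries. W83S held stomach transcripts, with 7 placed marker genes summing to 41020 FPKM against at most 5.72 in any other library. None of the 9 genes had its lowest or its highest value in W83S.

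All 9 genes lie on annotated loci of mm10 (GRCm38, GENCODE M21). Cyp3a11 (ENSMUSG00000056035.8, chr5:145854426-145879964), Cyp3a25 (ENSMUSG00000029630.15, chr5:145977194-146009618) and Cyp3a44 (ENSMUSG00000054417.5, chr5:145773983-145805874) stand in 1 cluster on the minus strand. Cyp3a13 (ENSMUSG00000029727.7, chr5:137892932-137921619) lies apart from them on the same strand of the same chromosome. Cyp2c65 (ENSMUSG00000067231.4, chr19:39061015-39093944) and Cyp2c66 (ENSMUSG00000067229.3, chr19:39113898-39187072) are neighbours on the plus strand. Cyp2b10 (ENSMUSG00000030483.14, chr7:25897620-25926624) and Nr1i3 (ENSMUSG00000005677.14, chr1:171213970-171220701) are on the plus strand, and Nr1i2 (ENSMUSG00000022809.4, chr16:38248323-38294824) is on the minus strand.

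The members of these clusters are close copies, and the sequences upstream of both pairs of relatives are shown because 1 gene of the Cyp3a pair differed from the other in its pattern across the libraries. The stretches are from RefSeq (GRCm38.p6), in the direction of the gene, and run over 170 bases from 250 bases before the RefSeq start. Capitals mark AGGTCA or AGTTCA on either strand, the sequence CAAAGTCCA, and in Cyp3a44 and Cyp2c66 the bases aligned to CAAAGTCCA.
Cyp3a11 (chr5:145879935-145880104, minus strand): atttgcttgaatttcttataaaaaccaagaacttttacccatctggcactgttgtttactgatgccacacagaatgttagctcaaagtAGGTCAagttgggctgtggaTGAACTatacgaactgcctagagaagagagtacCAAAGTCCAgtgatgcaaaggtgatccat
Cyp3a44 (chr5:145805955-145806124, minus strand): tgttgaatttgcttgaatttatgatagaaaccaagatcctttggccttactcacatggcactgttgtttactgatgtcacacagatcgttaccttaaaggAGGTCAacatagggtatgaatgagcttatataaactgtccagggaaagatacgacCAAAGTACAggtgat
Cyp2c65 (chr19:39060756-39060925, plus strand): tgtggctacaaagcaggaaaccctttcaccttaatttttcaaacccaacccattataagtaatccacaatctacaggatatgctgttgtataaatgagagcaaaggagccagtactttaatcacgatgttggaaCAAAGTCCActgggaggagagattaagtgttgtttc
Cyp2c66 (chr19:39113648-39113817, plus strand): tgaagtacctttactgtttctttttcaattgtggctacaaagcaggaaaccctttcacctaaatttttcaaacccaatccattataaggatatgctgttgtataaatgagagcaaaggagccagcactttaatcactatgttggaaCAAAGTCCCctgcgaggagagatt
Over the 250 bases, Cyp3a11 and Cyp3a44 were identical in 72.1% of aligned columns, and Cyp2c65 and Cyp2c66 in 74.6%. AGGTCA is the core site that many nuclear receptors read, and AGTTCA is a variant of it. AGGTCA was found on either strand in 3 of the 9 promoters (Cyp3a11, Cyp3a25 and Cyp3a44), against 14% of 32851 mouse promoters of the same length. AGTTCA was found in 1 of the 9 (Cyp3a11), against 11.8%. CAAAGTCCA, a sequence of the kind that HNF4 receptors read, was found in Cyp3a11 at -109 and in Cyp2c65 at -116 from the RefSeq start, which is 2 of the 9, against 0.384% of all promoters. Counted from 1 at the 5′ end of CAAAGTCCA, Cyp3a44 carried the change C7A and Cyp2c66 the change A9C. The 3 paired arrangements searched for, 2 copies of AGGTCA or AGTTCA in the same direction with 3 or with 4 bases between them, and TGACCT or TGAACT followed after 6 bases by AGGTCA or AGTTCA, contain these single sites and were in none of the 9 windows. They were in 0.0122%, 0.0244% and 0.00913% of all promoters. CAAAGTCCA was also found in the windows of Cyp3a16, Cyp3a41a and Cyp3a41b. Sites further upstream than 250 bases were not searched for, and a link of these sequences to expression was not tested. GENCODE starts Cyp3a11 110 bases upstream of the RefSeq start, at the edge of the CAAAGTCCA match.

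None of the 9 genes differed between the genotypes at the thresholds used, an adjusted p under 0.05 (limma, Benjamini-Hochberg over 13089 rows) and a fold change above 1.5 or below 2/3. Across all rows, 0.00764% passed, which is 1 row (Gm29008, named after its value was seen). Among the 9 genes, 1 had an unadjusted p under 0.05 (Cyp3a44), while 12.5% of all rows did. In 8 genes the KO and WT libraries overlapped. Only Cyp3a44 had all KO libraries above all WT libraries, as did 5.9% of all rows, and no gene had them all below, as did 11.3%. Cyp3a44 passed the filter through its KO libraries alone. The median log2 fold change of the 9 genes was -0.05, against -0.06 over all rows. Libraries of 1 genotype often lay far apart. The highest value was at least 2 times the lowest in 8 genes among the KO libraries (all but Nr1i2) and in 6 genes among the WT libraries, Cyp3a44 with its WT library at 0 not counted. The tissue was described as matched between KO and WT mice, without saying which mice were matched, and no test here takes this into account. The p-values measure the spread between 3 mice per genotype, and the exact permutation test of 3 against 3 cannot go below 0.1. In bulk mucosa, fewer cells of a type and less RNA per cell cannot be told apart.

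**Figure D1:**
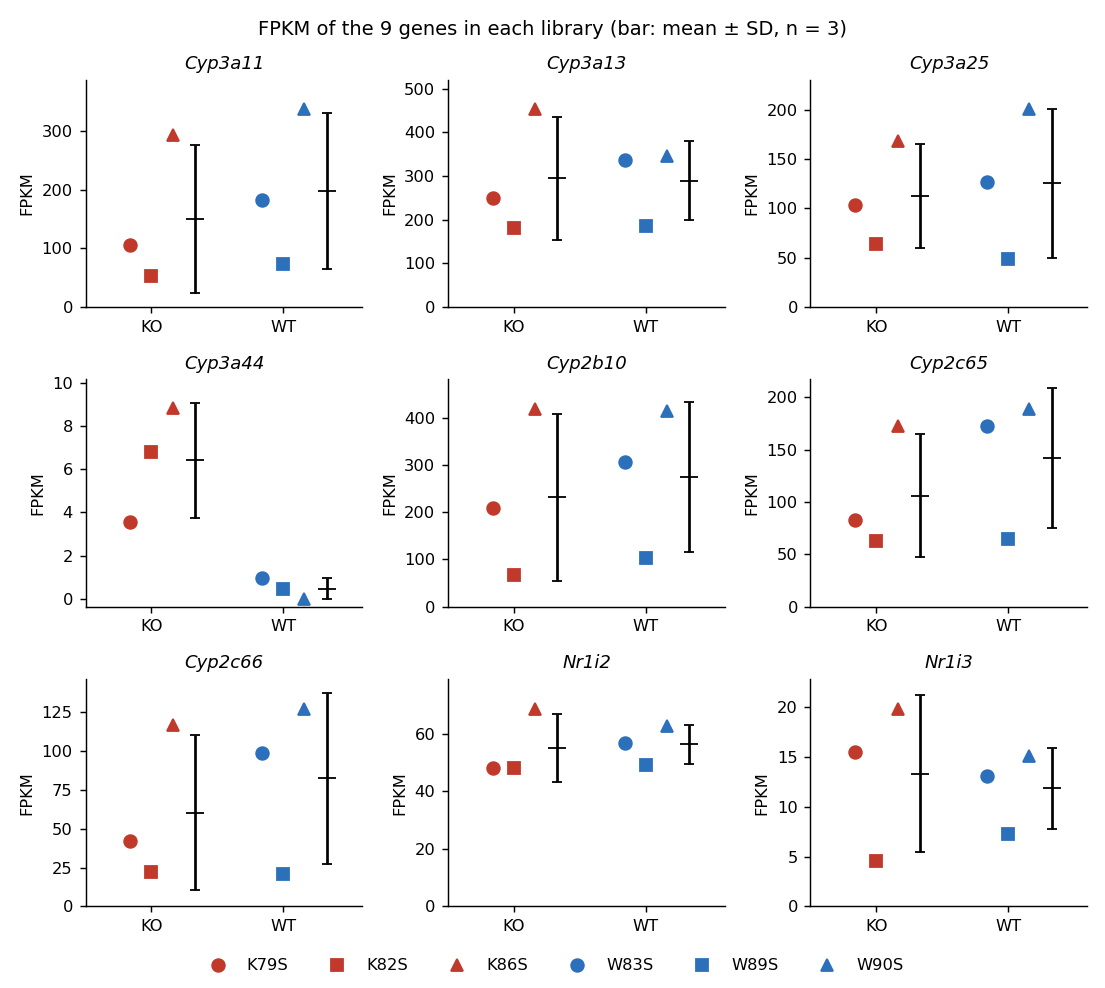
FPKM of each gene (vertical axis, from 0, with its own scale per panel) in the 3 KO libraries (red) and the 3 WT libraries (blue), with bars for the mean ± SD (n = 3). The genotypes overlap in every panel except Cyp3a44, and squares (K82S and W89S) are the 2 lowest libraries in 7 panels.

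Cyp3a13, a Cyp3a enzyme of gut and liver, had the highest mean level of the 9 genes, 292 FPKM over the 6 libraries. Its FPKM was 250.4, 181 and 453 in K79S, K82S and K86S and 338, 186 and 345 in W83S, W89S and W90S. The low library of each genotype, K82S and W89S, stood at nearly the same level, and the means were 294.5 ± 141 in KO and 289.6 ± 90.01 in WT, each with its SD over 3 libraries. For KO over WT the log2 fold change, on the log2(FPKM + 1) scale used throughout, was -0.03 (SE 0.41, limma adjusted p = 0.982).

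Cyp3a11, the most studied drug-metabolising Cyp3a enzyme of the mouse, lay at 106, 52.2 and 293 FPKM in the KO libraries and at 183, 73.8 and 337 FPKM in the WT libraries. Its highest value was 6.45 times its lowest, and each genotype held both a low and a high library. The log2 fold change was -0.49, with a 95% interval of -2.30 to 1.32 (limma adjusted p = 0.804). Cyp3a25, its neighbour in the cluster, lay at 103, 64.4 and 169 FPKM in KO and at 127, 48.8 and 200.2 FPKM in WT. The order of the libraries was that of Cyp3a11, except that W89S in place of K82S was the lowest. Its log2 fold change was -0.05, with an interval of -1.42 to 1.32 (adjusted p = 0.976).

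Cyp3a44, a Cyp3a enzyme known from female mouse liver, was low and had another pattern. Its FPKM was 3.57, 6.81 and 8.83 in K79S, K82S and K86S and 0.992 and 0.451 in W83S and W89S, and it was listed at 0 in W90S. Every KO library lay above every WT library, and K82S, low in most of the other genes, was the second highest. All WT values were under 1 FPKM, so the gene passed the filter through its KO libraries alone. Its separation and p-values are therefore given as a description. With no filter its limma adjusted p was 0.507. The means were 6.40 ± 2.65 FPKM in KO and 0.481 ± 0.497 in WT (SD, n = 3; exact two-sided permutation p = 0.1, the smallest possible). In the fit the log2 fold change was 2.31 (SE 0.36, 95% interval 1.45 to 3.16), with an unadjusted p of 0.000433 and a limma adjusted p of 0.393. The size of this fold depends on the constant added to FPKM, since 1 WT library is at 0, and it was 3.96 with 0.1 and 5.17 with 0.01. When K82S was left out, Cyp3a44 passed the thresholds (log2 fold change 2.23, adjusted p = 0.0377), together with 9.28% of all 12764 rows tested, 0.4% in the higher and 8.88% in the lower direction. Over all 17 alternatives its adjusted p ranged from 0.0377 to 0.716. K79S, in which Y-linked transcripts were at or near 0, had the lowest KO value. Without K79S and W83S the log2 fold change was 2.86 (adjusted p = 0.421). Liver markers (4 placed, none at 0 in any library) summed to 27.3 to 55.1 in KO and to 63.4 to 131.7 FPKM in WT. Between the genotypes, this sum was higher in WT and Cyp3a44 was higher in KO. Within KO the orders were not opposite, since K79S was the lowest library in both. Most of the liver sum in each KO library was Cps1, at 19.2, 33.5 and 24.9 FPKM in K79S, K82S and K86S. Cps1 lay at 34.2, 39.4 and 60.2 FPKM in W83S, W89S and W90S. Alb and Ttr were also lower in every KO library than in every WT library, while Serpina1b overlapped. The part of sex and of cell content in the difference was not tested.

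The placement of Cyp3a44 was also near the limit of the table, as its 0.992 FPKM in W83S is close to the lowest placed value of 0.954. In the stretch of ranks that holds it, 83 of 84 genes with 1 annotated transcript had at most 6 decimals, against 8.15% of 135 genes with several. The placement was derived from these decimals, so this match is not independent support for it. Decimals also cannot tell apart genes that each have 1 transcript. Of all 50-base windows of the Cyp3a44 transcript, as long as 1 read, 26.5% also occur in another gene, among them 11.5% in Cyp3a41a, 10.6% in Cyp3a63-ps and 6.95% in Cyp3a11. A further 1407 of 1913 windows occur in no other gene. The expression of Cyp3a16, Cyp3a41a, Cyp3a41b and Cyp3a57 was not analysed here. How reads common to several genes were divided is not given in the sources used here, so the level of Cyp3a44 is uncertain.

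Summed FPKM of the 4 Cyp3a genes was 464, 304 and 923 in the KO libraries and 648, 309 and 882 in the WT libraries, so that the sum overlapped (exact permutation p = 0.9). Cyp3a13 made up 39.2% to 60.2% of this sum, and its share was highest in W89S and K82S. Cyp3a11 made up 17.2% to 38.2%, with its lowest share in K82S and its highest in W90S. The share of Cyp3a44 was 0.77%, 2.24% and 0.957% in K79S, K82S and K86S and 0.153%, 0.146% and 0% in W83S, W89S and W90S. The 2 ranges did not overlap (exact permutation p = 0.1, the smallest possible), while those of the other 3 genes did. The share is made from the Cyp3a44 values already given, so it is a description and not a further test.

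Cyp2b10, the classical target gene of CAR, had the second highest mean level, 253 FPKM. It lay at 210.0, 66.9 and 419 FPKM in the KO libraries and at 306, 102 and 415 FPKM in the WT libraries. The highest values of both genotypes were nearly the same, and the lowest was K82S. Its log2 fold change was -0.38, with a 95% interval of -2.23 to 1.48 (limma adjusted p = 0.857).

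Cyp2c65 and Cyp2c66 encode gut enzymes that oxidise fatty acids such as arachidonic acid. Cyp2c65 lay at 82.3, 62.5 and 173 FPKM in the KO libraries and at 172, 65.0 and 189 FPKM in the WT libraries. Cyp2c66 lay at 42.1, 22 and 117 FPKM in KO and at 98.7, 21.04 and 127 FPKM in WT. In both genes K82S and W89S were low and K79S was between them and the remaining 3 libraries. The log2 fold changes were -0.41 (95% interval -1.67 to 0.85, limma adjusted p = 0.759) and -0.42 (interval -2.40 to 1.55, adjusted p = 0.850). FPKM of Cyp2c65 was 1.48 to 1.96 times that of Cyp2c66 in K79S, K86S, W83S and W90S, and 2.84 and 3.09 times in K82S and W89S. These 2 genes hold 379 transcript windows of 50 bases in common, so part of their reads cannot be told apart.

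Nr1i2, which encodes PXR, was the most even of the 9 genes. It lay at 48.3, 48.3 and 68.8 FPKM in the KO libraries and at 56.7, 49.3 and 62.9 FPKM in the WT libraries. The highest value was 1.42 times the lowest, and the genotypes overlapped. Its log2 fold change was -0.04, and the 95% interval of -0.53 to 0.44 is the narrowest of the 9 genes (limma adjusted p = 0.939).

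Nr1i3, which encodes CAR, lay at 15.5, 4.54 and 19.9 FPKM in the KO libraries and at 13.1, 7.31 and 15.1 FPKM in the WT libraries. K82S and W89S were the lowest, and the remaining 4 libraries lay at 13.1 to 19.9 FPKM. Its log2 fold change was 0.01, with a 95% interval of -1.25 to 1.26 (limma adjusted p = 0.997). The FPKM of Nr1i2 was 3.11 to 4.32 times that of Nr1i3 in these 4 libraries, 6.75 times in W89S and 10.6 times in K82S. Of the Nr1i3 transcript windows, 47.8% also occur, on the other strand, in the overlapping gene Tomm40l, and the use of strand in counting is not given in the sources used here.

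**Figure D2:**
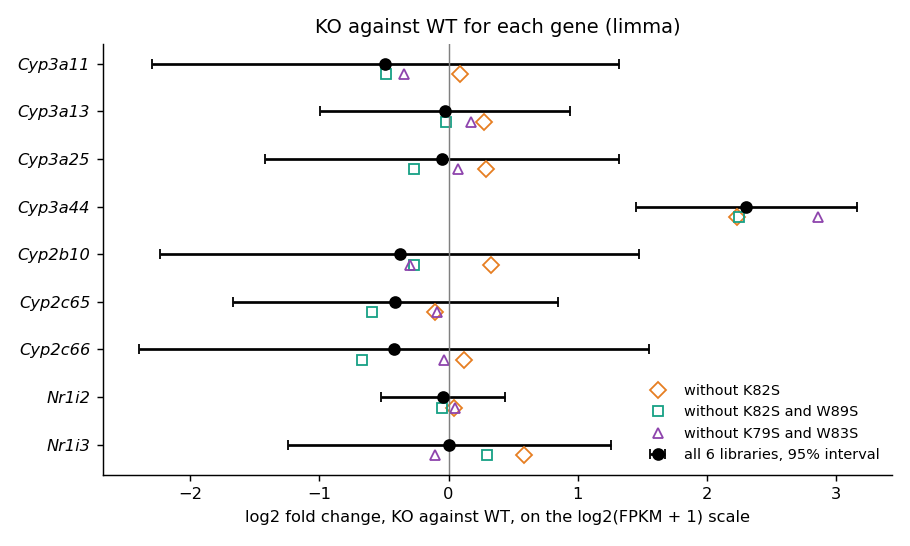
Log2 fold change of KO over WT per gene (horizontal axis, log2(FPKM + 1) scale) with its 95% interval from all 6 libraries (black), and the values without K82S, without K82S and W89S, and without K79S and W83S (open symbols). The interval lies above 0 for Cyp3a44 alone, and Nr1i2 has the narrowest interval.

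Ordered by mean FPKM, the genes were Cyp3a13 (292), Cyp2b10 (253), Cyp3a11 (174), Cyp2c65 (124), Cyp3a25 (119), Cyp2c66 (71.3), Nr1i2 (55.7), Nr1i3 (12.6) and Cyp3a44 (3.44). Of the 8 pairs of neighbours in this order, 3 kept their order in 6 of 6 libraries, namely Cyp2b10 over Cyp3a11, Cyp3a25 over Cyp2c66 and Nr1i2 over Nr1i3. Each had an exact two-sided sign-flip permutation p of 0.0312, the smallest possible, and an adjusted p of 0.0833 over the 8 pairs. The pairs and their direction were taken from the same 6 libraries, so these p-values describe the order and are no evidence for it. With 6 libraries and 8 pairs this test could not take so few pairs below an adjusted p of 0.05, so it does not show that they overlap. The mean log2 difference was 0.56 (SD 0.26), 0.92 (SD 0.46) and 2.18 (SD 0.59), in the order given. The other 5 pairs changed their order in at least 1 library. Cyp2c66 and Nr1i2 exchanged places in 3 libraries.

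The variation that these genes had in common ran across the genotypes. K82S (KO) and W89S (WT) were the 2 lowest libraries in 7 of the 9 genes, namely Cyp3a11, Cyp3a13, Cyp3a25, Cyp2b10, Cyp2c65, Cyp2c66 and Nr1i3. Over all rows tested, both of these libraries lay below the other 4 in 7.94% and above them in 12.4%. K86S (KO) and W90S (WT) were the 2 highest libraries in 7 genes, the same ones except that Nr1i2 took the place of Nr1i3. For 7 genes the residual SD of the fit was at or above the 90th percentile of all rows. The median residual SD of the 9 genes was 0.81 on the log2 scale, against 0.24 over all rows. Without K82S and W89S the log2 fold change was -0.49 for Cyp3a11, -0.26 for Cyp2b10 and 2.25 for Cyp3a44 (limma adjusted p = 0.0839 for the last).

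Most markers of the upper small intestine moved with this pattern. The summed FPKM of 7 placed markers of the proximal small intestine was 1133 in K82S and 1568 in W89S, against 2218 to 6034 in the other 4 libraries. Most of the sum in each library was Fabp1. K82S and W89S were the 2 lowest libraries in 5 of the 6 tested markers. Slc40a1 did not follow, at 5.11 FPKM in K82S, 1.31 in W89S and 0.529 in W90S, its lowest. Cybrd1, placed but not tested, was lowest in K79S. Fabp1, a fatty acid binding protein, lay at 972 FPKM in K82S and 1255 in W89S and at 1576 to 5415 in the others. Lct, the lactase gene, lay at 76.3 and 163 FPKM against 243 to 489.8, and Adh6a, an alcohol dehydrogenase gene, at 68.3 and 122 FPKM against 149 to 298.

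Markers of the distal small intestine ran the other way in part. Slc51a and Slc51b, which encode the 2 subunits of the exporter that passes bile acids to the blood, were highest in K82S and W89S. Slc51a lay at 885 and 449.6 FPKM there and at 169 to 421 FPKM in the other libraries. Muc3, a membrane mucin gene on the same list, did not follow, and lay at 894 and 736 FPKM against 612 to 1380. The summed distal list, with 5 of 8 listed markers placed, was 2945 and 1856 in K82S and W89S and 1119 to 2309 in the others. Fabp6 and Slc10a2 were on the list but not placed. No placed marker was at 0 in any library. No row under 0.954 FPKM in W83S was placed, so genes low in that library are missing from all lists.

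Other cell types also varied with the libraries. Goblet cell markers summed to 9307 FPKM in K82S and 10230 in W89S, against 4212 to 5559 in the other 4 libraries, with 4 of 6 genes highest in these 2. Most of the sum was Tff3, at 6337 and 7748 FPKM there. Muc2, the main secreted mucin of goblet cells, and Fcgbp did not follow and are named after their values were seen. Muc2 lay at 126 FPKM in K82S and 7.03 in W89S, its lowest, against 68.3 to 159.6 in the others, and Fcgbp at 400.3 and 397 FPKM against 291 to 894. Paneth cell markers ranged from 609 in K79S to 8521 in W89S, and enterocyte markers from 13150 in K82S to 24490 in K86S. Apoa4, an apolipoprotein gene of enterocytes, lay at 2820 and 3340 FPKM in K82S and W89S and at 5807 to 10434 in the others. Fabp2, also of enterocytes, did not follow and was highest in W89S (11224 FPKM). None of the genes on the marker lists was called, beside 0.00764% of all rows. Colon markers summed to 103 to 198 FPKM, smooth muscle markers to 10.7 to 33.6 and immune markers to 68.8 to 206. Pancreatic markers summed to 2343 FPKM in W83S and to at most 5.30 elsewhere. The part of gut position and of these cell types in the levels of the 9 genes was not tested.

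**Figure D3:**
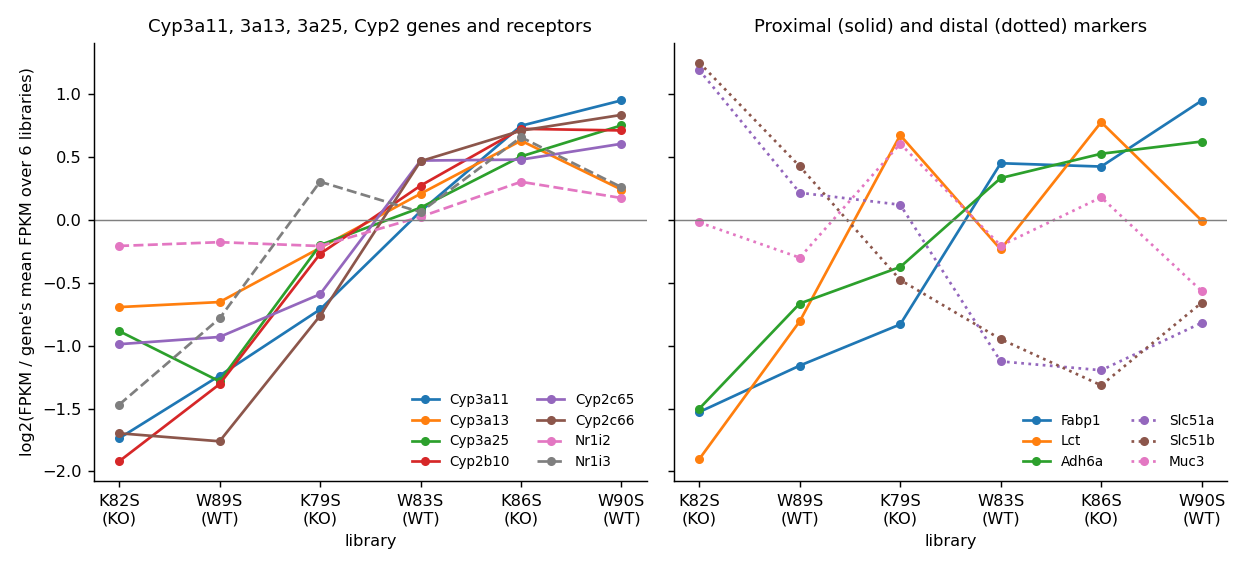
Log2 of FPKM over the gene's mean FPKM (vertical axis) in each library (horizontal axis, K82S and W89S at the left), for 8 of the genes (left panel, receptors dashed) and for the 3 highest proximal and the 3 highest distal markers (right panel). The P450 genes and Nr1i3 are low in K82S and W89S, where Fabp1, Lct and Adh6a are also low and Slc51a and Slc51b are high, while Nr1i2 is nearly flat.

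Patterns over the 6 libraries were compared with those of 58 tested genes from the lists described below, which are not 1 pathway. Most like Cyp3a13 were Pgrmc2 (Pearson r of log2(FPKM + 1) 0.98), Ugt1a1 (0.97) and Gstm1 (0.95). Pgrmc2 encodes a heme-binding membrane protein, Ugt1a1 the enzyme that conjugates bilirubin and Gstm1 a glutathione transferase. The genes most like Cyp2c65 were Pgrmc2 (0.98), Gstm1 (0.97) and Ugt1a7c (0.96). Those most like Nr1i2 were Aldh1a1, a retinal dehydrogenase gene (0.99), Pgrmc2 (0.94) and Gstm1 (0.90). These correlations are descriptions over 6 libraries that differ in depth and in cell content.

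Targets of PXR and CAR outside the P450 family, which conjugate or export foreign compounds, were tested in the same fit. Of 20 listed genes 17 were tested, and 7 had a log2 fold change above 0 (median -0.11). None was called in either direction, beside 0.00764% of all rows. K82S and W89S were the 2 lowest libraries in 8 of the 17, among them Ugt1a1, Gstm1 and Gstm3. Ugt1a1 lay at 96.9 and 94.4 FPKM in these and at 179 to 301 FPKM in the others. Gstm3, another glutathione transferase gene, lay at 37.7 and 75.6 FPKM against 137 to 355. Gsta1 lay at 62.8, 41.4 and 176 FPKM in the KO libraries and at 547, 93.7 and 312 FPKM in the WT libraries, which overlapped.

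The 2 genes of the drug exporter P-glycoprotein, Abcb1a and Abcb1b, were the targets of this list whose genotypes did not overlap, and are named after their values were seen. Abcb1a lay at 130.3, 130.03 and 173 FPKM in KO and at 82.8, 106 and 115 FPKM in WT. Abcb1b lay at 5.90, 5.37 and 6.98 FPKM in KO and at 3.398, 4.03 and 4.55 FPKM in WT. The log2 fold changes were 0.51 (SE 0.21, unadjusted p = 0.047) and 0.51 (SE 0.15, unadjusted p = 0.0129), and both had a limma adjusted p of 0.393. These are 2 of 17 genes, near the shares over all rows, of which 5.9% had all KO libraries above, 17.2% did not overlap in either direction and 12.5% had an unadjusted p under 0.05. Unlike most of the 7 P450 genes examined, neither had K82S and W89S as its 2 lowest libraries.

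**Figure D4:**
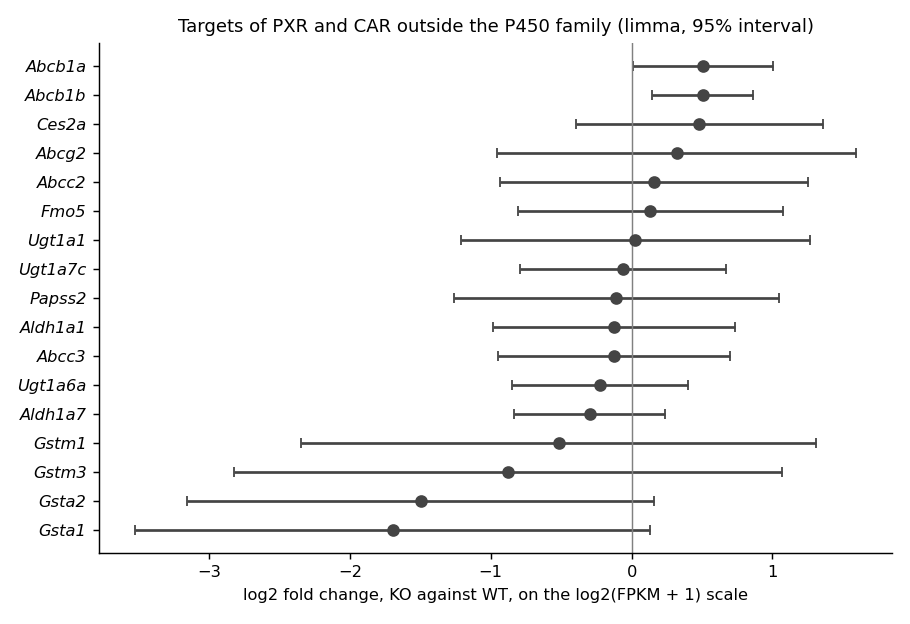
Log2 fold change of KO over WT (horizontal axis, log2(FPKM + 1) scale) with its 95% interval for the 17 tested targets of PXR and CAR outside the P450 family. The points lie on both sides of 0, and the intervals of Abcb1a and Abcb1b lie above it.

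Some of the other P450 genes had this library pattern as well. Of 44 further Cyp2 genes 10 were placed and tested, with a median log2 fold change of -0.08. None was called, beside 0.00764% of all rows. The genotypes overlapped in each, while 17.2% of all rows did not overlap. K82S and W89S were the 2 lowest libraries in 3 of the 10 (Cyp2b13, Cyp2c29 and Cyp2j6), beside 7.94% of all rows. Cyp2d26 was the highest, with 66.7 FPKM in K82S and 132 to 237 FPKM in the other libraries. Cyp2c55 lay at 34.2, 71.9 and 70.6 FPKM in KO and at 56.5, 23.2 and 91.7 FPKM in WT, so that W89S was the lowest and K82S was not low. Cyp2j6 lay at 25.1 FPKM in K82S and at 38.9 to 52.1 FPKM elsewhere. Cyp3a59, the single further Cyp3a gene that was placed, lay at 0.496, 8.31 and 4.88 FPKM in KO (the first in K79S) and at 4.16, 5.67 and 6.67 FPKM in WT, so that K79S was its lowest library and K82S its highest. It shares 25% of the windows of Cyp3a25.

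Genes that supply the P450 enzymes with electrons or heme were all tested, 8 of 8, with a median log2 fold change of -0.04. None was called, beside 0.00764% of all rows. K82S and W89S were the 2 lowest libraries in 5 of them, including Por, the electron donor of these enzymes, and Alas1, the first enzyme of heme synthesis. Pgrmc1, a heme-binding relative of Pgrmc2, lay at 141 to 229.8 FPKM. Cyb5a and Cyb5b, the cytochrome b5 genes, lay at 89.5 to 279 and at 123 to 196 FPKM.

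Of 20 listed receptor partners and coregulators 17 were tested and none was called, beside 0.00764% of all rows (median log2 fold change 0.17). Rxra, the partner of both receptors, lay at 31.5 to 37.2 FPKM in KO and at 25.5 to 33.2 FPKM in WT. Hnf4a, a receptor of gut and liver epithelium, lay at 154 to 235 FPKM in KO and at 129 to 215 FPKM in WT, and its relative Hnf4g at 62.2 to 103 and at 69.0 to 78.2 FPKM. KO libraries were all above WT libraries in 2 of the 17 (Nr3c1 and Ncor1) and all below in 1 (Ncoa1), beside 5.9% and 11.3% of all rows. Of 8 genes of the aryl hydrocarbon receptor, another sensor of foreign compounds, 5 were tested and none was called, beside 0.00764% of all rows. Cyp1a1, its main P450 target, lay at 12.5, 8.79 and 78.2 FPKM in KO and at 25.4, 5.18 and 19.7 FPKM in WT. Nqo1, a quinone reductase gene, lay at 9.92 to 15.0 FPKM in KO and at 18.2, 18.2 and 84.4 FPKM in WT, the highest value being that of W83S. It was the 1 gene of these 5 with all KO libraries below all WT libraries, beside 11.3% of all rows. Tiparp lay at 4.08 to 8.68 FPKM.

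The extent to which 50-base reads can tell these genes from their relatives differed between them. Cyp3a13 and Nr1i2 held no window of 50 bases that occurs in another gene. The share was 9.69% in Cyp2b10, 14.8% in Cyp3a11, 20.6% in Cyp2c65, 24% in Cyp2c66, 26.5% in Cyp3a44, 26.8% in Cyp3a25 and 47.8% in Nr1i3. The levels of the latter 7 genes are uncertain to the degree that common reads were divided among relatives.

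**Figure D5:**
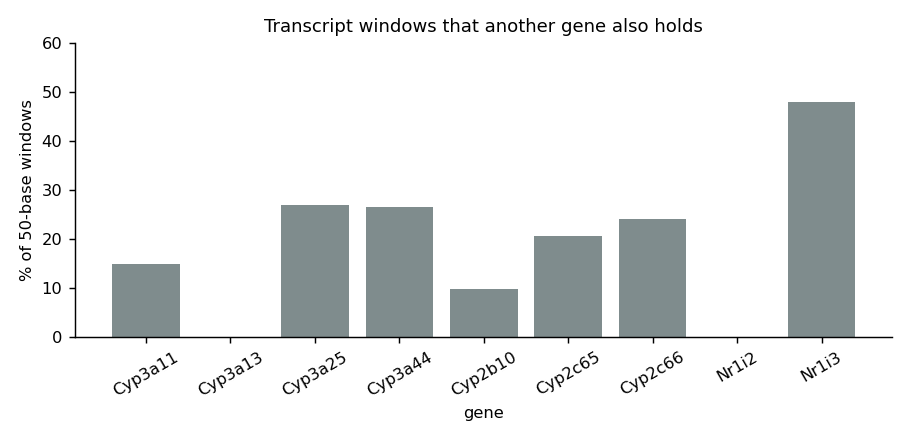
Percent of 50-base windows of the main transcript of each gene (vertical axis) that also occur in a transcript of another gene. Cyp3a13 and Nr1i2 are at 0, and Nr1i3, which overlaps Tomm40l on the other strand, is highest.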

How the data were processed

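RNA-seq was analysed for 3 KO and 3 WT mice. The authors sequenced 50-base single ends, removed adapters (trim-galore), aligned the reads (HISAT2, mm10) and obtained gene levels with StringTie. The deposited values are FPKM, and tool versions, gene annotation and strand setting are not given in the sources used here. Identifiers were ranked by the K79S value beside them and rows by W83S, and an identifier was moved to the row of its rank plus a fixed offset per stretch of ranks. Of 22700 rows 12402 were placed. Among genes with 1 annotated transcript 99.7% of rows then had at most 6 decimals, against 35.5% when shifted by 1 rank. The offsets were derived from these decimals, so this is not an independent check.

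Rows needed an FPKM of at least 1 in 2 libraries, the filter of the study. Values of log2(FPKM + 1) went into limma (version 3.58.1, run under R 4.3.3; lmFit, then eBayes with a mean-variance trend, no covariate), tested two-sided with Benjamini-Hochberg adjustment over 13089 rows. Motifs, windows and exact permutation tests used Python 3.11.15, scipy 1.17.1 and Biopython 1.88, with GENCODE M21 (GRCm38) and RefSeq promoters, which matched all 9 genes. Read counts were not used, so precision rests on 3 mice per genotype.

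The genes, gene lists and tests were chosen with earlier results of these data known. The rule for naming covered the 9 genes, Enpp7, called genes, all other Cyp3a genes and the 3 highest genes of each list. It also covered the 3 listed genes most like the highest Cyp3a, Cyp2c and receptor gene. For several marker lists not all of the 3 highest were named, with Anpep of the enterocyte list among those left out. Other names were chosen after values were seen. Alternatives covered the added constant, filter, scaling, variance model, library weights and leaving out libraries. Leaving out K82S and W89S, or K79S and W83S, was added after seeing the data.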

Additional observations from a re-analysis of the deposited data

How the results depend on the processing

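No gene other than Cyp3a44 was called under any of the 17 alternatives. Cyp3a44 kept its direction in all of them. Its KO values all lay above its WT values, and it passed the filter through KO alone. Leaving out libraries or changing the constant, filter, variance model or weights could therefore not have turned its direction. Cyp3a44 passed the thresholds in 1, without K82S (log2 fold change 2.23). Rows called numbered 1 with all libraries, 0 to 1184 when 1 library was left out (1184 without K82S), 0 with a constant of 0.1 or 0.01, 2 with library weights, 3 without K82S and W89S and 0 without K79S and W83S. The cause was not tested. Rescaling moved the median log2 fold change of all rows from -0.06 to 0.01 (median ratio), 0.03 (quantile) and 0.08 (same summed FPKM), and turned the direction of 3 genes whose fold was near 0. With median ratio, quantile and same-sum scaling the log2 fold changes were 0.0601, 0.129 and 0.158 for Cyp3a13, 0.0374, 0.0883 and 0.134 for Cyp3a25, and 0.0425, 0.0883 and 0.139 for Nr1i2. Library weights gave 0.0127 for Cyp3a13. Constants of 0.01 and 0.1 gave -0.0156 and -0.0132 for Nr1i3. Without K79S and W83S, values were 0.174 for Cyp3a13, 0.0736 for Cyp3a25, 0.0489 for Nr1i2 and -0.104 for Nr1i3.

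Leaving out 1 library at a time gave log2 fold changes of -1.14 to 0.0903 for Cyp3a11, -0.39 to 0.27 for Cyp3a13, -0.61 to 0.40 for Cyp3a25, 2.05 to 2.62 for Cyp3a44, -0.98 to 0.33 for Cyp2b10, -0.90 to -0.10 for Cyp2c65, -1.21 to 0.12 for Cyp2c66, -0.21 to 0.0404 for Nr1i2 and -0.37 to 0.59 for Nr1i3. The highest value was that without K82S for Cyp3a11, Cyp3a13, Cyp2b10, Cyp2c65, Cyp2c66 and Nr1i3. No paired analysis was possible because the labels give the KO and WT libraries no common replicate numbers and the study, which describes matched mice, does not say which were matched. The counting error of low genes such as Cyp3a44 was not computed, since FPKM holds no read counts.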
